A study of Mus musculus with 24 samples.

Results

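Cd74, H2-Q1, Btnl6 and Sectm1b are 4 genes of families linked to antigen presentation or to contact between epithelial cells and lymphocytes. They were taken by name from tables of mRNA-seq of sorted mouse intestinal epithelium, in which 82 different genes were listed as differing between Smarcad1 knockout (KO) and wild type (WT) in at least 1 cell type. All 4 were listed in colon epithelial cells (CO) and in no other cell type, in each case with the lower value in KO. Of the 82 genes, 44 (53.7%) were listed as lower in CO. In the WT intestine 3 of the 4 genes had their highest level in villus enterocytes, and Cd74 was high in all 3 small intestinal populations and low in the colon. In KO colon cells the normalised read count of H2-Q1 was 8.41% of the WT value, that of Cd74 17.1%, that of Btnl6 36.8% and that of Sectm1b 37.3%. The KO level of H2-Q1 was low, at -0.86 on the log2 scale. With 1 added to the linear values its log2 difference was -2.28 instead of -3.57.

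The 24 libraries comprised 8 groups of 3, a KO and a WT group for each of 4 sorted populations. From the small intestine came crypt stem cells (ISC), their transit amplifying progeny (TA) and, from the villi, adult enterocytes (AE). CO came from the colon. The mice were males, and their ages are not given in the sources used here. KO animals carried Smarcad1 alleles with loxP sites around exons needed for ATP binding, from a mouse line derived from 1 targeted embryonic stem cell clone, together with a Villin-cre transgene that is active in epithelial cells of the intestine. All 8 groups, KO and WT alike, had the strain label C57BL/6 Lgr5-GFP, a reporter allele that puts GFP and an inducible Cre under the Lgr5 gene. Whether WT animals carried loxP sites or Villin-cre is not stated. ISC had high GFP and TA medium GFP, and they were sorted at the same time from crypt suspensions of the small intestine without antibodies. AE and, from colon crypts, CO were sorted as Epcam-high cells negative for CD31 and CD45. Crypts were digested with enzymes to free single cells, whereas villus cells were freed by pipetting without digestion. Differences of AE from the other populations thus cannot be told apart from an effect of this step. Whether libraries of a group came from separate animals is not stated.

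Cd74 is the invariant chain of MHC class II: it chaperones class II molecules, keeps their peptide groove closed and guides them to endosomes, where peptides are loaded. H2-Q1 is a non-classical class I heavy chain gene of the Q region of the mouse MHC. Btnl6 belongs to the butyrophilin-like family, immunoglobulin-domain proteins of the gut epithelium that pair with Btnl1 and sustain γδ T cells residing between epithelial cells. Sectm1b encodes a small secreted and transmembrane protein of a family whose human member binds CD7 on T cells. Class I and class II genes are known to be raised by interferons, and epithelial expression of class II genes in the gut depends in part on the microbiota.

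On GRCm38, Cd74 (ENSMUSG00000024610) occupies bases 60803848 to 60812646 of the plus strand of chromosome 18, where its span also holds the microRNA gene Mir5107 on the same strand. H2-Q1 (ENSMUSG00000079507) occupies bases 35320405 to 35325099 of the plus strand of chromosome 17. Btnl6 (ENSMUSG00000092618) is on the minus strand of the same chromosome at 34507804 to 34517352, 803052 bp from H2-Q1. Sectm1b (ENSMUSG00000039364) is on the minus strand of chromosome 11 at 121053458 to 121063569. All 4 are annotated as protein coding, although 1 of the 2 transcripts of Btnl6 is annotated as a pseudogene.

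Members of the MHC and butyrophilin-like families are similar to each other, so that a 50 bp read can match several genes. Of the 3029 different 50-mers in H2-Q1 transcripts, 453 (15.0%) also occurred in transcripts of another gene, most often H2-Q2 with 274. In Btnl6 the shared portion was 112 of 1702 (6.58%), most often with the pseudogene Btnl5-ps, which had 60. Cd74 with 1725 and Sectm1b with 2797 had none. The values of H2-Q1 and Btnl6 therefore rest on the parts of their transcripts that can be read uniquely, since the reads were kept only where they mapped to 1 place. The closest coding sequence to that of H2-Q1 was H2-D1, with 86.1% identity over 1103 aligned bp. The closest to Btnl6 was Btnl4, with 89.2% over 1625 bp, and the closest to Sectm1b was Sectm1a, with 69.6% over 342 bp, which covered 53.3% of its coding sequence.

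The following stretches of 60 bases show how the genes can be told apart by reads, each with the aligned bases of the closest relative. Capitals mark the bases that differ within a pair. The H2-Q1 stretch is in coding exon 2, chr17:35320999-35321058 on the plus strand, and has 16 differences. The Btnl6 stretch is in coding exon 9, chr17:34508293-34508352 on the minus strand, and has 14. The Sectm1b stretch is in coding exon 2, chr11:121055883-121055942 on the minus strand, and has 21. No 50-mer of the 3 stretches occurred in transcripts of another gene, as the choice required.
H2-Q1: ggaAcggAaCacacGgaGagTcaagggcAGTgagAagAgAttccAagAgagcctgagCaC
H2-D1: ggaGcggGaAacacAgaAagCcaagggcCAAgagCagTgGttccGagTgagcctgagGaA
Btnl6: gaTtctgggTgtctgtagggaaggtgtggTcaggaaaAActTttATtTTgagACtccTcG
Btnl4: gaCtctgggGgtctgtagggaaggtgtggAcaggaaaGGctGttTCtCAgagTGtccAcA
Sectm1b: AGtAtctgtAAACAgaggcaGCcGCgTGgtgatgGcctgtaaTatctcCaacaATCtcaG
Sectm1a: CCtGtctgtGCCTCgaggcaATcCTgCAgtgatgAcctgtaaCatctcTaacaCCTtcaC

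Each level below is the authors' mean for a group of 3 libraries, given as the log2 of reads normalised to total reads. The deposited tables held no value per library, so that no SD, interval or test was computed and library depth is unknown. The paper describes supplementary levels by sample for colon epithelium, which were not used here. Whether a difference exceeds the spread between libraries is known here only for the listed comparisons, which passed the authors' FDR limit of 0.1. Genes kept because they passed such a limit tend to have differences that are estimated too large. In sorted bulk cells, fewer cells of a type and less RNA per cell cannot be told apart.

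The targeted gene was checked first. Smarcad1, an ATP-dependent chromatin remodeller, had KO minus WT log2 differences of -0.77 (ISC), -0.88 (TA), -0.60 (AE) and -0.87 (CO). It was listed in TA and CO only. Reads were counted over the exons of the whole gene, whereas Cre removes only those between the loxP sites. These values therefore do not measure how complete the deletion was. The paper quantified reads over the deleted exons in ISC, TA, AE and CO, which was not repeated here. It detected no Smarcad1 protein after deletion in various cell types. The number of genes listed was 7 (ISC), 15 (TA), 20 (AE) and 56 (CO). Of the cell type markers examined, the stem cell gene Ascl2 had WT values of 6.05 (ISC), 4.24 (TA), -0.18 (AE) and 3.84 (CO), and the marker genes of enterocytes and colonocytes were not analysed here. Ascl2 was listed as higher in KO in CO, the comparison in which the 4 genes were listed as lower, with a difference of 1.08.

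In the WT epithelium Cd74 had a log2 level of 8.67 in ISC, of 7.37 in TA, of 7.79 in AE and of 3.42 in CO. It was thus high throughout the small intestine and low in the colon, where its level was 37.8-fold below that of ISC and 20.6-fold below that of AE. Within the small intestine TA minus ISC was -1.29 and AE minus ISC was -0.88 on the log2 scale, and the order of these 3 populations cannot be judged without values per library.

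H2-Q1 had a WT level of 1.86 in ISC, of 2.59 in TA, of 7.26 in AE and of 2.71 in CO. It was 42.0-fold higher in AE than in ISC and 23.4-fold higher in AE than in CO. Btnl6 also had its highest level in AE and its lowest in ISC, with a level of 5.07 in ISC, of 5.83 in TA, of 8.24 in AE and of 5.43 in CO. Its level in AE was 9.02-fold that in ISC and 7.03-fold that in CO. ISC, TA and CO were close to each other for both genes: CO minus ISC, the widest of their differences for H2-Q1, was 0.85 on the log2 scale, and for Btnl6 TA minus ISC was the widest with 0.76.

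Sectm1b had a WT level of 6.13 in ISC, of 4.73 in TA, of 8.90 in AE and of 6.31 in CO. It also peaked in AE, 6.82-fold above ISC and 6.04-fold above CO, but its lowest level was in TA rather than in ISC. Over the 82 listed genes the median WT difference between AE and ISC was 1.75 on the log2 scale and that between AE and CO was 0.30. Against this, the AE to CO differences of 4.36 for Cd74, 4.55 for H2-Q1, 2.81 for Btnl6 and 2.59 for Sectm1b were large, while for AE against ISC Cd74 had -0.88 and the others had 5.39, 3.17 and 2.77.

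**Figure D1:**
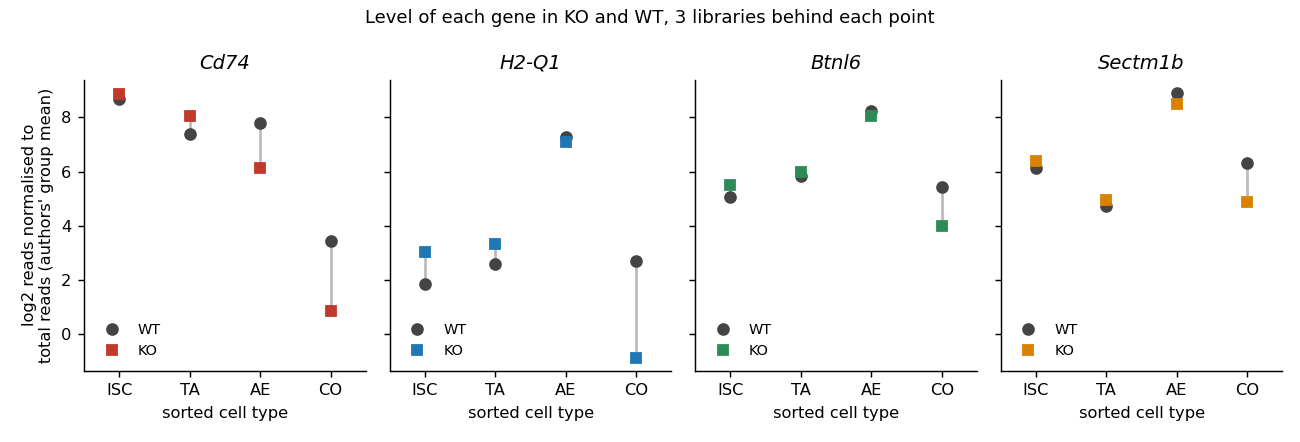
Log2 reads normalised to total reads (y axis) of the 4 genes in ISC, TA, AE and CO (x axis). Points are the authors' group means over 3 libraries, without error bars. WT is shown as grey circles, KO as coloured squares, and a grey line joins each pair. In CO the KO square lies below the WT circle for every gene, with KO minus WT from -3.57 for H2-Q1 to -1.42 for Sectm1b, and in AE the widest gap is that of Cd74 (-1.64).

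To compare the genes with each other, levels were divided by the exon length of each gene. Per kb of exon, the log2 level in WT ISC was 7.92 for Cd74, 4.66 for Sectm1b, 4.26 for Btnl6 and 0.35 for H2-Q1. In WT AE the levels per kb came close together, with 7.04 for Cd74, 7.44 for Btnl6, 7.43 for Sectm1b and 5.74 for H2-Q1. In WT CO the order was different, with Sectm1b at 4.83, Btnl6 at 4.62, Cd74 at 2.68 and H2-Q1 at 1.20. The order of Sectm1b and Btnl6 in AE turned with the length used: it was -0.01 for Sectm1b minus Btnl6 with all exons and 0.27 with the longest transcript.

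The comparison of KO with WT in CO is the one in which the genes were listed, so its values are a description and support nothing further. Cd74 had a level of 0.87 in KO against 3.42 in WT, a log2 difference of -2.55. H2-Q1 had -0.86 in KO against 2.71 in WT, a difference of -3.57, the lowest of the 82 genes. The KO value of H2-Q1 still lay 4.47 above the lowest value of its column, that is, above the value shared by the genes with the least signal. In CO, 56 of the 82 genes (68.3%) had a lower value in KO, 44 (53.7%) were listed as lower, and 31 (37.8%) were lower by 1 or more on the log2 scale, a limit that all 4 genes passed.

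Btnl6 had a level of 3.99 in KO CO against 5.43 in WT, a difference of -1.44. Sectm1b had 4.89 in KO against 6.31 in WT, a difference of -1.42. Both lay closer to the median of the 44 genes listed as lower, which was -1.26, and stood at positions 18 and 20 of the 82 counted from the lowest, whereas Cd74 stood at position 5. The genes next to H2-Q1 and Cd74 in this order were Erich4 with -3.34, Abca12 with -2.80, the interferon-inducible Rsad2 with -2.59 and, after Cd74, Mal with -2.45. Abca12, Mal and, for AE, Slc1a3 were named after their values were seen.

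In AE none of the 4 genes was listed, as against 3 of the 82 (3.66%) that were listed as lower, and the differences were of unequal size. Cd74 had a level of 6.15 in KO against 7.79 in WT, a difference of -1.64, so that KO had 32.1% of the WT value. This was the lowest AE difference of the 82 genes, of which again 3 (3.66%) were lower by 1 or more, and the next were Cd244 with -1.50 and Slc1a3 with -1.28. Those 2 genes were not listed in AE either, so that the size of a difference between means did not by itself place a gene in the table.

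The other members differed little in AE. H2-Q1 had 7.10 in KO against 7.26 in WT, with KO at 89.8% of WT. Btnl6 had 8.06 against 8.24, at 88.2%, and Sectm1b had 8.48 against 8.90, at 74.9%. Lower values in KO were found for 49 of the 82 genes (59.8%) in AE, with a median of -0.11 over all and -0.30 over the 4. H2-Q1 thus had the lowest CO difference of the listed genes while its AE difference was near the median of all.

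**Figure D2:**
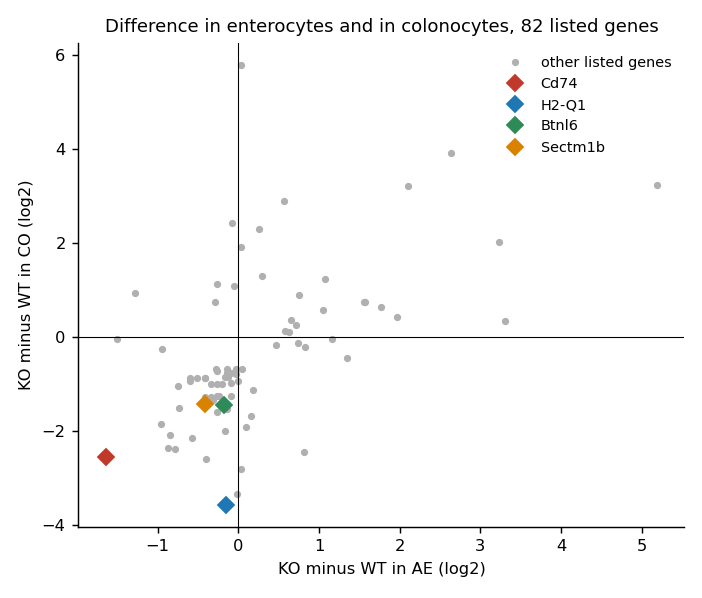
Log2 difference KO minus WT in AE (x axis) against that in CO (y axis) for the 82 listed genes, from the authors' group means, with the 4 genes as coloured diamonds and the others in grey. Cd74 is at -1.64 and -2.55 and is the leftmost point, H2-Q1 is at -0.16 and -3.57 and is the lowest point, and Btnl6 and Sectm1b lie within the main group of grey points.

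In the crypt populations of the small intestine all 4 genes had higher values in KO. None of them was listed there, where 5 of the 82 genes (6.1%) were listed as higher in ISC and 10 (12.2%) in TA. In ISC, H2-Q1 had a level of 3.03 in KO against 1.86 in WT, a difference of 1.16. Btnl6 had 5.50 against 5.07, Sectm1b 6.38 against 6.13 and Cd74 8.85 against 8.67, which are differences of 0.43, 0.25 and 0.19. Higher values in KO ISC were found for 60 of the 82 genes (73.2%), and 22 (26.8%) were higher by 1 or more, of which H2-Q1 was the member.

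In TA, H2-Q1 had 3.34 in KO against 2.59 in WT, a difference of 0.75, and Cd74 had 8.06 against 7.37, a difference of 0.69. KO values were 168% and 161% of WT. Btnl6 had 5.98 against 5.83 and Sectm1b 4.95 against 4.73, with differences of 0.15 and 0.23. Of the 82 genes 57 (69.5%) had a higher TA value in KO, and 14 (17.1%), none of the 4 among them, exceeded a difference of 1.

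The 4 genes therefore shared a sign in each cell type: higher in KO in ISC and TA, lower in AE and CO. This pattern of signs was found for 27 of the 82 listed genes (32.9%) and for 24 of the 44 genes listed as lower in CO (54.5%). ISC and TA were sorted at the same time from crypt suspensions, so their signs may not be independent. The median difference of the 4 genes was 0.34 (ISC), 0.46 (TA), -0.30 (AE) and -2.00 (CO), beside 0.41, 0.18, -0.11 and -0.81 over all listed genes.

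**Figure D3:**
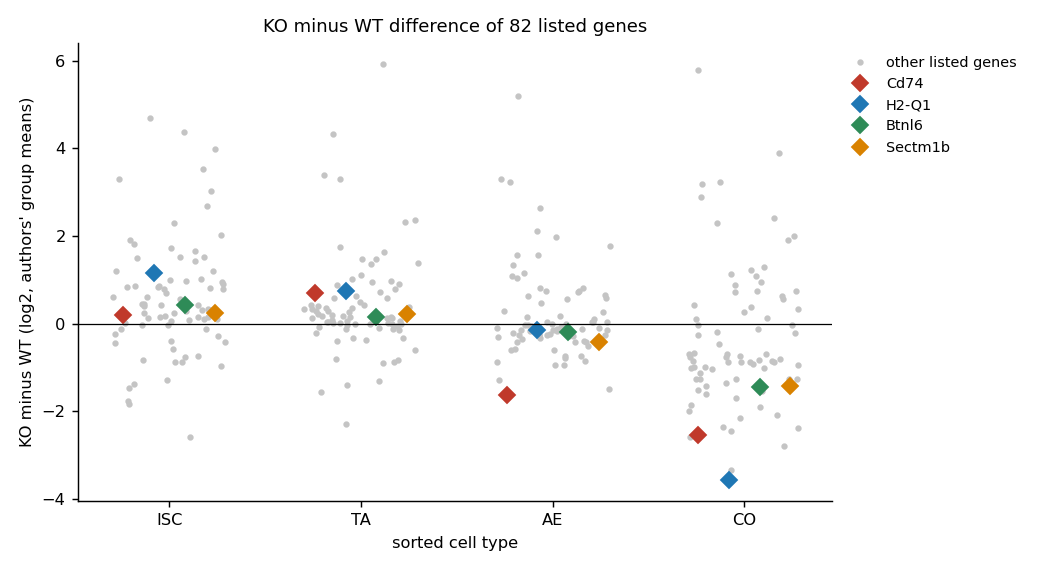
Log2 difference KO minus WT (y axis, authors' group means) in each sorted cell type (x axis) for the 82 listed genes, with the 4 genes as coloured diamonds and the others as grey points spread sideways for legibility. The diamonds lie between 0.15 and 1.16 in ISC and TA, between -1.64 and -0.16 in AE and between -3.57 and -1.42 in CO.

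With these differences the contrast between villus and colon cells was wider in KO than in WT. This follows largely from the lower KO values in CO by which the genes were listed, so the ratios are a description only. The AE to CO ratio of Cd74 was 38.7-fold in KO against 20.6-fold in WT, and that of H2-Q1 was 249-fold against 23.4-fold. The KO ratio of H2-Q1 rests on a low CO level of -0.86 on the log2 scale. For Btnl6 the ratios were 16.9-fold and 7.03-fold and for Sectm1b 12.1-fold and 6.04-fold. The median AE to CO difference of the 82 genes was 1.01 on the log2 scale in KO and 0.30 in WT. In KO the lowest level of each gene was that in CO, but for Sectm1b TA minus CO was only 0.069 on the log2 scale.

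Likeness of profile was measured as Pearson's r over the 8 group values, as a description, since the points share libraries and the genes were chosen by differences between the same groups. H2-Q1 and Btnl6 were each the first match of the other among the 82 genes, with r of 0.99. By Spearman's rho (0.93) Btnl6 was still the first match of H2-Q1, but H2-Q1 was only in place 4 for Btnl6. Both shared Slco2a1, a prostaglandin transporter, with r of 0.96 and 0.97, and were next matched by Erich4 (0.95 with H2-Q1) and by Cyp2c65, a cytochrome P450 (0.96 with Btnl6). Sectm1b was nearest to Tmem140 (0.93), the brush border protocadherin gene Cdhr2 (0.91) and the laminin chain gene Lama3 (0.91), with r of 0.86 to H2-Q1 and 0.84 to Btnl6.

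Cd74 stood apart from the others. Its r was 0.46 with H2-Q1, 0.41 with Btnl6 and 0.22 with Sectm1b. Its first matches were Itln1 (0.91), a lectin of Paneth and goblet cells, Cd244 (0.89), a receptor of natural killer cells and some T cells, and Clca4b (0.86). Itln1 was in place 2 by Spearman's rho and in place 4 over the 4 WT groups alone, and the rho of Clca4b was 0.52. These 3 genes and Cd74 had in common low values in CO.

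**Figure D4:**
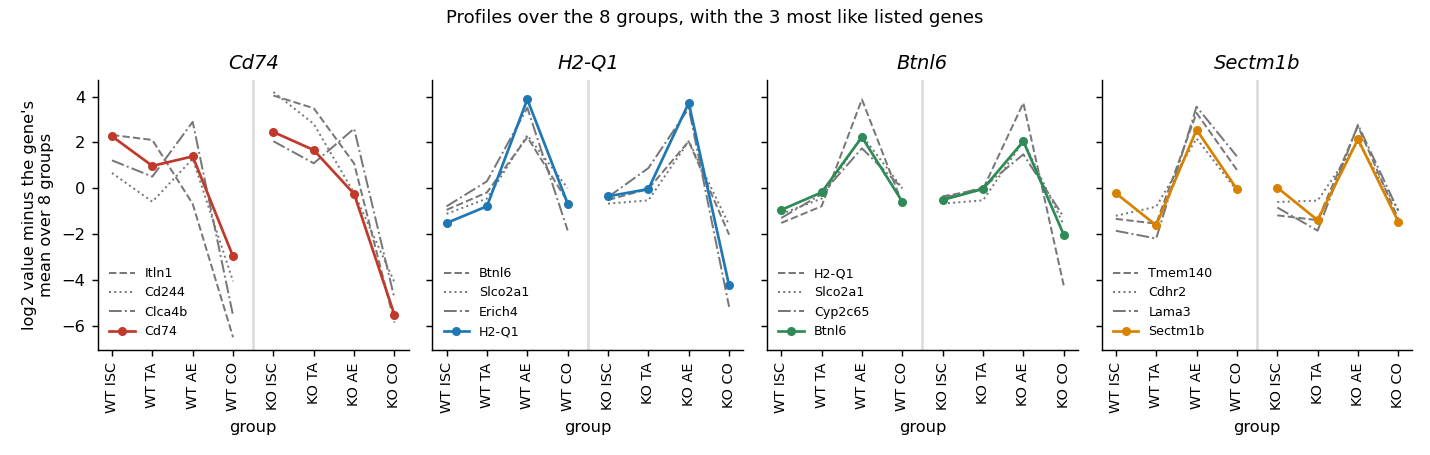
Log2 value minus the gene's own mean over the 8 groups (y axis) for WT ISC to CO and KO ISC to CO (x axis), with each of the 4 genes in colour and its 3 most similar listed genes in grey. H2-Q1, Btnl6 and Sectm1b peak in AE in both genotypes, whereas Cd74 is lowest in CO in both genotypes and in AE lies above TA in WT and below it in KO.

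Cells other than epithelium can carry these transcripts, Cd74 above all, which is abundant in B cells and other antigen-presenting cells. ISC and TA were sorted without exclusion of CD45-positive cells, whereas AE and CO were sorted with it. In WT, AE minus ISC of Cd74 was -0.88 and AE minus TA was 0.42 on the log2 scale. ISC minus CO was 5.24 and TA minus CO was 3.95. In KO these differences were -2.70, -1.92, 7.98 and 7.19. The number of cells per sort also varied more in ISC (1000 to 80000) and TA (1000 to 135000) than in AE (100000) and CO (75000 to 100000). Of 9 markers of T cells and intraepithelial lymphocytes, only Cd244 had values. It was at -0.56 in WT ISC, -1.82 in WT TA and 0.06 in WT AE, and at the lowest value of the column in both CO groups. In KO minus WT it had 3.53 for ISC, 3.39 for TA, where it was listed, and -1.50 for AE, the same signs as those of Cd74. Of 4 markers of B and plasma cells and 7 of myeloid cells none had values, and the part of such cells in the levels of Cd74 was not tested.

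Of 8 markers of Paneth and goblet cells Lyz1, the lysozyme of Paneth cells, and Itln1 had values. Lyz1 had a KO minus WT difference of 1.20 in ISC and 1.64 in TA, and of 2.11 in AE and 3.20 in CO, where it was listed as higher. Itln1 had 1.72 in ISC, 1.38 in TA and 1.76 in AE, listed as higher in TA and AE, and 0.64 in CO. Both were thus higher in KO in all 4 cell types, whereas the 4 genes had higher values only in ISC and TA. The part of Paneth and goblet cells and, in CO, of stem cells in the differences of the 4 genes was not tested.

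Other genes of the same pathways were sought in fixed lists. Of 13 class II presentation genes only Cd74 had values, of 30 class I presentation genes only H2-Q1, of 9 butyrophilins only Btnl6 and of 23 epithelial ligands for lymphocytes only Sectm1b. The remaining genes of these lists, among them the class II chains, B2m and Btnl1, were not analysed here, and nothing can be said of their levels. Of 27 interferon-associated genes 4 had values, of which 2 were listed as lower in KO CO, a share close to the 53.7% of all listed genes. These were the transcription factor gene Irf7 with a difference of -2.00 and Rsad2 with -2.59. Ifit1 had -2.36 in CO, where it was not listed, and Slfn4 had -0.46. In AE Ifit1 was listed as lower with -0.87 and Slfn4 as higher with 1.34, beside Irf7 with -0.17 and Rsad2 with -0.40. In TA Slfn4 was listed as higher with 1.47, and Irf7 had 0.37, Rsad2 0.96 and Ifit1 -0.36. In ISC, where none of the 4 was listed, Irf7 had 0.79, Rsad2 3.04, Ifit1 1.91, and Slfn4 had 283% of the WT value in KO.

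Of the 4 genes, Btnl6 and Sectm1b had an entry in the RefSeq promoter table of GRCm38.p6, and the 250 bases before their starts are shown because both genes were high in AE and lower in KO CO. The Btnl6 window, chr17:34517353-34517602 on the minus strand, has 54% G and C. The Sectm1b window, chr11:121063570-121063819 on the minus strand, has 48.4%.
Btnl6: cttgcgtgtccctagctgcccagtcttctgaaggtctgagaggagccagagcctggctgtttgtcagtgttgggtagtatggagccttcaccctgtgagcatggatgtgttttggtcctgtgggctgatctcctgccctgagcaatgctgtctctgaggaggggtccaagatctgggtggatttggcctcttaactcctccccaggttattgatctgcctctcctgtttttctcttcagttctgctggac
Sectm1b: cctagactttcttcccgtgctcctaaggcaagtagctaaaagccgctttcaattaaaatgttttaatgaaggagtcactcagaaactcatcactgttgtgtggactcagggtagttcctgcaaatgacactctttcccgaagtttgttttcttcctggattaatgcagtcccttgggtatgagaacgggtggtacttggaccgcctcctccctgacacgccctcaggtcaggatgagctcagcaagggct

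Both windows were searched on both strands for 6 motifs, and none was found in either window. The core of the interferon-stimulated response element, GAAANNGAA, occurs in 7.13% of the 32851 promoter windows of that length in the table. A gamma-activated sequence, TTCNNNGAA, occurs in 7.02% of them. The CCAAT box, spelled by its name, occurs in 33.8%, and TGACG, a part of the cAMP response element, in 17.8%. AGATAA, which GATA factors bind, occurs in 9.99%, and CAAAGTCCA, a form of the HNF4 motif, in 0.384%. The letters of these motifs were compared without mismatches, and a missing match says only that they are not in this window.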

How the data were processed

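mRNA-seq was made from 24 libraries of sorted cells, 8 groups of 3 (50 bp single reads, poly(A) selection, directional kit, 15 PCR cycles). The authors trimmed reads with Trim Galore 0.4.4, aligned them to GRCm38 with HISAT2 2.1.0 and counted uniquely mapped reads over exons with merged isoforms in SeqMonk. Use of strand in counting is not stated. The authors ran DESeq2 for KO against WT in each cell type and deposited tables of the genes under an FDR of 0.1, whose adjusted p-value is not printed here and served only to check that limit. The deposited log2 values are the authors' means per group of reads normalised to total reads, not to length. The sources do not say if values were averaged as logs or before.

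From these values, KO minus WT differences, fold ratios and Pearson's r were computed for all 82 genes and checked on simulated data. Libraries shared numbers between groups in the labels but had no value of their own in the deposited tables. The depth of each is unknown, and no test was run. The members and gene lists were chosen with earlier results of these data known. Named genes were the 4 members, Smarcad1, listed genes of the fixed lists, the 3 genes most like each member and the closest relatives, taken by coding sequence because no protein table was used here. Gene models came from GENCODE M21, promoters from RefSeq. For 7 rows the feature column named another gene than the gene symbol, and rows were joined by symbol. Alternatives were 1 added to linear values, linear values raised to at least 0.1, another exon length, a fold limit of 0.5, Spearman's rho and WT groups alone. A length counting only uniquely readable bases was added after the data were seen. Python 3.11.15, numpy 2.4.6, pandas 2.3.3, matplotlib 3.10.9 and blastn 2.17.0 were used.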

Additional observations from a re-analysis of the deposited data

How the results depend on the processing

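No alternative for the linear values could turn the sign of a KO minus WT difference, since each keeps the order of the group values. Adding 1 to the linear values drew the low levels together: the CO difference was then -2.05 for Cd74 and -2.28 for H2-Q1, the ISC difference of H2-Q1 was 0.98, its WT differences were 5.05 for AE minus ISC and 4.35 for AE minus CO, and that of Cd74 for AE minus CO was 4.24. With 1 added, 13 genes instead of 22 were higher in KO ISC by 1 or more and 1 instead of 3 was lower in KO AE. With a limit of 0.5, the counts of lower and higher genes were 13 and 36 (ISC), 9 and 25 (TA), 14 and 22 (AE) and 49 and 20 (CO), against 6 and 22, 4 and 14, 3 and 13, and 31 and 13 with a limit of 1. Per kb, Sectm1b minus Btnl6 in WT was 0.39 (ISC), -1.77 (TA), -0.01 (AE) and 0.21 (CO) with all exons. It was 0.67, -1.49, 0.27 and 0.49 with the longest transcript, which turned the sign in AE, and 0.24, -1.92, -0.16 and 0.062 with uniquely readable bases. Raising low values to 0.1 changed no difference, since every level of the 4 genes lay above 0.1. With Spearman's rho or WT groups alone, the correlation with each gene's first match moved by less than 0.1, but H2-Q1 fell to place 4 for Btnl6 by rho, and Itln1 to place 2 by rho and place 4 in WT alone for Cd74. No paired analysis was possible because the tables hold group means and no value per library, and for the same reason no library could be left out in turn. If the values were averaged as logs, 1 KO library at the lowest value of its column and the others at the WT mean would give a difference of -2.92 for Cd74, -3.59 for Btnl6 and -3.88 for Sectm1b in CO and of -4.31 for Cd74 in AE, each beyond the difference found, but of -2.68 for H2-Q1 in CO against -3.57. If they were averaged before the log, 1 library without reads would give -0.58, less than each of these. Both cases cover only a low KO library, and neither takes into account that the CO comparisons passed the authors' FDR limit of 0.1. A single high WT library was not considered and could give a larger fall if values were averaged before the log. Which kind of averaging holds is not known, and the part of single libraries was not tested beyond this.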
